A study of Homo sapiens with 6 samples.

Results

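The family of miR-148 and miR-152 was examined in the miRNA sequencing of Huh7 cells, a human hepatoma cell line. The family was taken as the rows of the deposited table named hsa-miR-148a-3p, hsa-miR-148a-5p, hsa-miR-148b-3p, hsa-miR-148b-5p, hsa-miR-152-3p and hsa-miR-152-5p, which are 6 of 2588 mature miRNAs listed. Cells transfected with a plasmid overexpressing hsa_circ_0098181 (overexpression group, 3 samples) were compared with cells transfected with a control plasmid (control group, 3 samples). All were transfected with Lipofectamine 2000 and total RNA was taken 48 h later, so that both groups share the cell line, the reagent and the time, and differ in the plasmid. The plasmid was carried transiently in a single hepatoma line, and the level of hsa_circ_0098181 itself was not analysed here. Nothing in the labels states that the 3 samples of a group came from separate cultures, and p-values then measure only the spread between these samples, which may be technical.

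A miRNA precursor is a hairpin whose 2 arms can each give a mature miRNA, named 5p and 3p. Usually one arm, the guide, is kept in an Argonaute protein and the other, the passenger, is degraded. The guide finds its target mRNAs mainly through its seed, bases 2 to 8 from the 5′ end. In this family the 3p arms are the guides. They are known in liver and other tissues for repressing DNA methyltransferases such as DNMT1, and in hepatocytes for repressing ABCA1, the cholesterol exporter. miR-148a is also known as a miRNA of differentiated hepatocytes.

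The mature sequences are shown to display what the members share. They were taken from RefSeq (GRCh38.p14), where 5 of the 6 members were matched, and hsa-miR-148a-5p is named only. Capitals mark the seed, and all sequences are written 5′ to 3′.
hsa-miR-148a-3p: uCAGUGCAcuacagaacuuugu
hsa-miR-148b-3p: uCAGUGCAucacagaacuuugu
hsa-miR-152-3p: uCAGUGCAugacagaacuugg
hsa-miR-148b-5p: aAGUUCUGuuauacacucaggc
hsa-miR-152-5p: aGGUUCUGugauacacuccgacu

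The 3 guide members carried one seed, CAGUGCA, and no other miRNA did among the 2281 listed miRNAs with a sequence in RefSeq. Counting positions from 1 at the 5′ end, hsa-miR-148a-3p and hsa-miR-148b-3p differed by 2 substitutions, C9U and U10C. hsa-miR-148a-3p and hsa-miR-152-3p differed over their 21 shared positions by C9U, U10G and U20G, and hsa-miR-148b-3p and hsa-miR-152-3p by C10G and U20G. All of these positions lie outside the seed. The closest miRNA outside the family was 6 edits away from hsa-miR-148a-3p and 7 edits from each of the other guides. The treatment of reads matching more than one miRNA is not given in the sources used here, and how reads were split between guides this alike is uncertain. The 5p seeds differed from each other, AGUUCUG in hsa-miR-148b-5p and GGUUCUG in hsa-miR-152-5p.

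The hairpins are shown to place the guide and passenger arms, with the matched mature members in capitals.
MIR148A: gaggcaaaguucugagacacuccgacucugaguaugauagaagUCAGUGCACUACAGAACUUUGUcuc
MIR148B: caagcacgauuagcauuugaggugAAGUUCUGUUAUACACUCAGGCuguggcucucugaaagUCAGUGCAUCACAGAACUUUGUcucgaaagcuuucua
MIR152: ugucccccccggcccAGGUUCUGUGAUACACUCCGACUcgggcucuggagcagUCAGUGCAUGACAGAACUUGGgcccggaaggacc

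The precursors come from 3 chromosomes. MIR148A lies at chr7:25949919-25949986 on the minus strand (GRCh38). In GENCODE release 29 it overlaps no other gene. The closest gene, the long intergenic noncoding RNA AC010719.1, is 516 bases away on the same strand. The closest protein-coding gene, NFE2L3, is 202254 bases away. MIR148B lies at chr12:54337216-54337314 on the plus strand, inside COPZ1, which encodes a zeta subunit of the COPI vesicle coat. All 17 COPZ1 transcripts that span the hairpin have an intron there. The gene AC078778.2, annotated as sense overlapping, also spans the hairpin on the plus strand, with no exon over it. MIR152 lies at chr17:48037161-48037247 on the minus strand, inside COPZ2, which encodes the paralogous zeta subunit. All 3 COPZ2 transcripts that span the hairpin have an intron there. hsa-miR-148b and hsa-miR-152 are thus intronic in paralogous hosts, each on its host's strand, and hsa-miR-148a is intergenic.

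The letters TGCACTG, which pair with the seed of the guides, were searched on the transcript strand in GENCODE release 29. They occurred 0 times in the 3991 bases of SOX5-202, a transcript of the host gene of hsa_circ_0098181. Of the 4968 protein-coding transcripts within 10% of that length, 30.6% held the letters. The letters were not searched in hsa_circ_0098181 itself, whose sequence was not available here. PPARA-201, a transcript of the nuclear receptor followed by the study, held them 2 times in 9965 bases, where 58.8% of 730 transcripts of like length held them. DNMT1-201 held them 1 time in 5408 bases, where 38.3% of 3212 transcripts of like length did. DNMT3B-201, of another DNA methyltransferase, held them 3 times in 4255 bases, where 31.9% of 4563 such transcripts did. ABCA1-202 held them 1 time in 10494 bases, where 59.6% of 634 did. The search covered whole transcripts. A match is a description of letters, and these matches were not tested for binding.

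The libraries held between 7144798 and 10786295 counts. Control replicate 3 stood apart. Over the miRNAs with a mean of at least 100 CPM, its median absolute log2 difference was 0.21 from each of the other controls, against 0.049 between those 2 controls and 0.078 to 0.11 among the overexpression samples. From overexpression replicates 1 to 3 it differed by 0.12, 0.19 and 0.16, less than from either control. Control replicate 1 differed from them by 0.14, 0.17 and 0.15, and control replicate 2 by 0.13, 0.19 and 0.16. Control replicate 3 also had the highest TMM factor, 1.09, against 0.921 to 1.03 in the other libraries. The factors were lower in the overexpression group (0.921 to 0.996) than in the control group (1.00 to 1.09), and over all tested miRNAs the median on the log2 scale moved from 0.0038 with TMM factors to -0.11 with the library size alone. Of the hepatocyte markers, 5 of 5 were counted in every library, with a summed level of 366241 to 384138 TPM in the overexpression group and 346895 to 372673 TPM in the control group, most of it hsa-miR-122-5p. With TMM factors, hsa-miR-122-5p was at 0.19 on the log2 scale (unadjusted p = 0.0108, adjusted p = 0.314 from edgeR). In direction alone, 4 of the hepatocyte markers were above 0 and 1 below. The 5 blood-cell markers summed to 13.3 to 14.3 TPM in the overexpression group and 17.0 to 19.1 TPM in the control group. Most of that sum was hsa-miR-142-3p, at -0.50 on the log2 scale (unadjusted p = 0.0105, adjusted p = 0.314 from edgeR), while hsa-miR-223-3p and hsa-miR-150-5p, the other tested blood markers, were at 0.45 and 0.46. The 5 stromal and muscle markers summed to 83.6 to 90.1 TPM and 92.7 to 101 TPM, most of it hsa-miR-143-3p, which was at -0.023 on the log2 scale with TMM factors. Of these, hsa-miR-133a-3p and hsa-miR-206 were at 0 in some libraries. The 2 endothelial markers summed to 4178 to 4341 TPM and 3811 to 4292 TPM, most of it hsa-miR-126-3p. In deposited TPM the sums of the blood and of the stromal markers did not overlap between the groups. Those of the hepatocyte and endothelial markers did overlap. On that scale 18.3% of all tested miRNAs did not overlap, and for 16.3% every overexpression sample was below every control sample. In TMM-scaled CPM, hsa-miR-142-3p did not overlap and hsa-miR-143-3p did. After adjustment, 0 markers passed in edgeR. Their part in the results below was not tested.

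The family was expressed in steps (the plot of levels by sample). The deposited TPM had no term for length. The matched members are 21 to 23 bases long, so that length differs little between them. hsa-miR-148a-5p was not matched, and its length is not given here. How evenly different sequences were captured in the libraries was not tested. The steps between members and arms below are therefore steps in counts. hsa-miR-148a-3p was the main guide, with a mean of 56555 TPM over the 6 samples. It ranked 3 or 4 among all miRNAs in every sample and made up 5.69% of all counts. hsa-miR-148b-3p followed with 4347 TPM (rank 27 or 28) and hsa-miR-152-3p with 345 TPM (rank 93 to 100). The passenger arms were lower still, with 28.3 TPM for hsa-miR-148a-5p, 5.20 TPM for hsa-miR-148b-5p and 0.961 TPM for hsa-miR-152-5p.

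**Figure D1:**
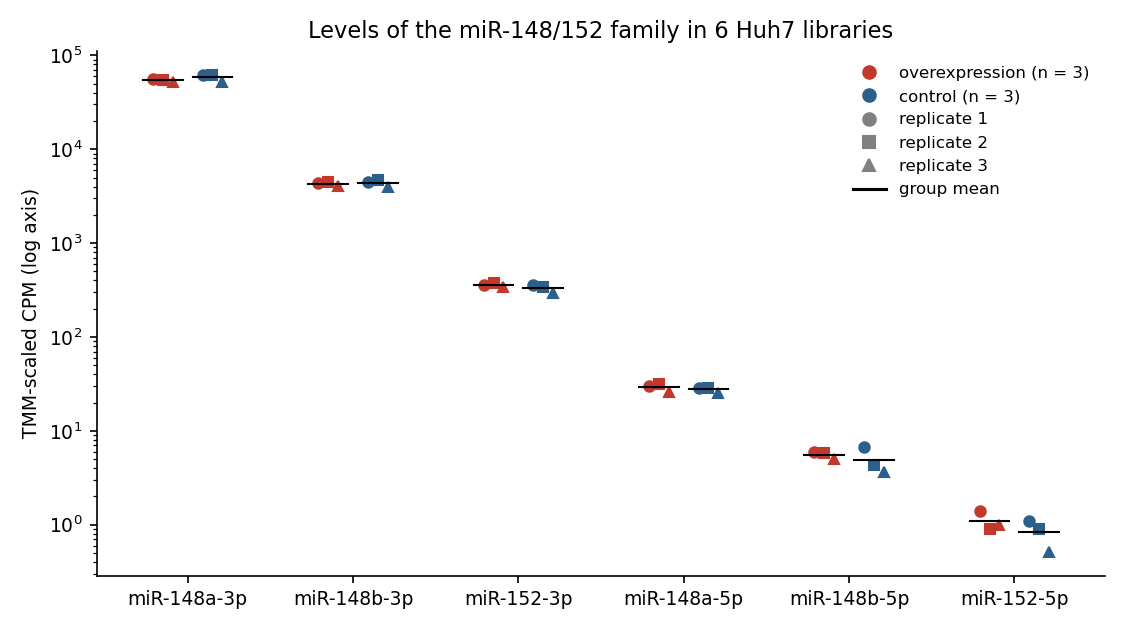
Level of each member in TMM-scaled CPM on a log axis, by sample, with red points for the overexpression group, blue points for the control group, a marker shape for each replicate number and a black line for the mean of each group (n = 3). Each member sat below the one to its left in all 6 samples, from 56460 CPM on average for hsa-miR-148a-3p to 0.966 CPM for hsa-miR-152-5p.

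This order held in every sample, and no neighbours in it overlapped within a sample. hsa-miR-148a-3p had 12.1 to 13.8 reads for each read of hsa-miR-148b-3p, which had 11.97 to 13.6 reads for each read of hsa-miR-152-3p, which had 11.7 to 13.1 reads for each read of hsa-miR-148a-5p. The next steps were smaller and wider, with a ratio of 4.29 to 7.07 from hsa-miR-148a-5p to hsa-miR-148b-5p and of 4.27 to 7 from hsa-miR-148b-5p to hsa-miR-152-5p. The passenger arms kept the order of their guides, hsa-miR-148a-5p above hsa-miR-148b-5p above hsa-miR-152-5p.

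hsa-miR-148a-3p, the dominant guide, had 448394, 425956 and 413726 counts in the overexpression group, replicates 1 to 3, and 676009, 551626 and 404946 counts in the controls, in the same order. In bulk RNA, fewer cells of a type and less RNA per cell cannot be told apart. In the deposited TPM these were 56200, 50296 and 49911 against 62673, 63572 and 56677. Every overexpression sample was below every control sample on this scale. That held for 16.3% of all tested miRNAs, and 18.3% had no overlap in either direction. In TMM-scaled CPM the values were 56407, 54638 and 51611 against 62385, 61618 and 52104, and the groups overlapped, with control replicate 3 among the overexpression samples. The group means were 54219 ± 2426 CPM (SD, n = 3) and 58702 ± 5727 CPM (SD, n = 3), in that order.

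hsa-miR-148b-3p, the guide from the COPZ1 intron, had 4339, 4528 and 4050 CPM in the overexpression group and 4529, 4651 and 3974 CPM in the control group. The groups overlapped, with means of 4306 ± 241 CPM and 4385 ± 361 CPM (SD, n = 3 each). hsa-miR-152-3p, the guide from the COPZ2 intron, had 357, 375 and 338 CPM in the overexpression group and 362, 341 and 298 CPM in the control group. Its means were 357 ± 18.1 CPM and 334 ± 32.7 CPM (SD, n = 3 each), also with overlap. For all 3 guides, the lowest value of each group was that of its replicate 3, and control replicate 3 was the lowest or second lowest of all 6 samples.

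The passenger arms were counted far less, and counting error took a larger part of their spread. hsa-miR-148a-5p was counted 236, 248 and 207 times in the overexpression group and 313, 256 and 198 times in the control group, which gave 29.1 ± 3.04 CPM and 27.7 ± 1.89 CPM (SD, n = 3 each). hsa-miR-148b-5p was counted 47, 45 and 40 times and 73, 39 and 28 times, which gave 5.56 ± 0.497 CPM and 4.90 ± 1.64 CPM (SD, n = 3 each). Control replicate 1 was its highest value and control replicate 3 its lowest. hsa-miR-152-5p was counted 11, 7 and 8 times and 12, 8 and 4 times, which gave 1.09 ± 0.257 CPM and 0.839 ± 0.300 CPM (SD, n = 3 each). In the control group its coefficient of variation was 35.8%, and counting alone gives 35.4% at such counts. For hsa-miR-148a-3p these values were 9.76% and 0.136%. The values from counting cover counting error only, since PCR reads without molecular identifiers are not independent molecules.

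Whether the overexpression of hsa_circ_0098181 changed the family was tested with edgeR's quasi-likelihood test over all 552 miRNAs that passed the filter on low counts. Of the 6 members, 5 passed the filter and hsa-miR-152-5p did not. Of these 5, 0 passed an adjusted p of 0.05 with edgeR or with DESeq2, and 0 passed an unadjusted p of 0.05 with either tool. Among all tested miRNAs, 0% passed with edgeR after adjustment and 9.06% before it. The groups overlapped in TMM-scaled CPM for all 5, and did not overlap for 15.4% of the tested miRNAs.

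For hsa-miR-148a-3p the log2 fold change came to -0.11, with a standard error of 0.076, a 95% confidence interval from -0.28 to 0.049 and an adjusted p of 0.617 in edgeR. hsa-miR-148b-3p had -0.026 (interval -0.21 to 0.16) and hsa-miR-152-3p had 0.096 (interval -0.13 to 0.32), with adjusted p of 0.917 and 0.757 from edgeR. The passenger arms hsa-miR-148a-5p and hsa-miR-148b-5p had 0.071 (interval -0.20 to 0.34) and 0.15 (interval -0.38 to 0.68), with adjusted p of 0.825 and 0.815 from edgeR. The interval of hsa-miR-148b-5p was the widest and that of hsa-miR-148a-3p the narrowest. In absolute size, the log2 fold change of hsa-miR-148a-3p was above that of 38.4% of the tested miRNAs and that of hsa-miR-148b-3p above that of 6.88%.

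**Figure D2:**
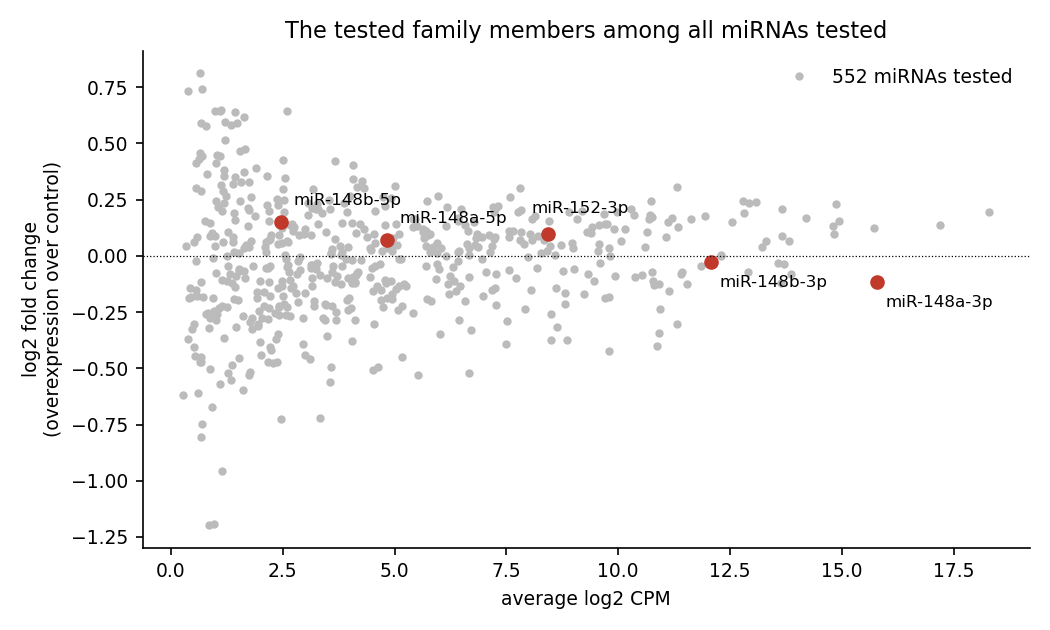
Log2 fold change of the overexpression over the control group against the average log2 CPM for the 552 miRNAs tested (grey) and the 5 tested family members (red). The members lie between -0.11 for hsa-miR-148a-3p, one of the most abundant miRNAs plotted, and 0.15 for hsa-miR-148b-5p.

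The result for hsa-miR-148a-3p rested on control replicate 3. Without that sample it fell, at -0.21 on the log2 scale with a standard error of 0.055, an interval from -0.32 to -0.10 and an adjusted p of 0.00658 in edgeR, and its adjusted p ranged from 0.00658 to 0.865 over the 16 alternatives. hsa-miR-148a-3p was then 1 of 5 tested members called, where 9.91% of all 565 tested miRNAs were called and 6.73% were called as lower. The other guides were at -0.11 (hsa-miR-148b-3p, adjusted p = 0.350 from edgeR) and 0.0019 (hsa-miR-152-3p, adjusted p = 0.996 from edgeR) in that fit. The adjusted p over their alternatives was 0.350 to 0.999 for hsa-miR-148b-3p and 0.688 to 0.996 for hsa-miR-152-3p. With the library size alone, hsa-miR-148a-3p was at -0.23 with an unadjusted p of 0.00498 and an adjusted p of 0.145 from edgeR, while the median of all miRNAs was at -0.11. hsa-miR-148a-3p was below 0 in all 16 alternatives.

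**Figure D3:**
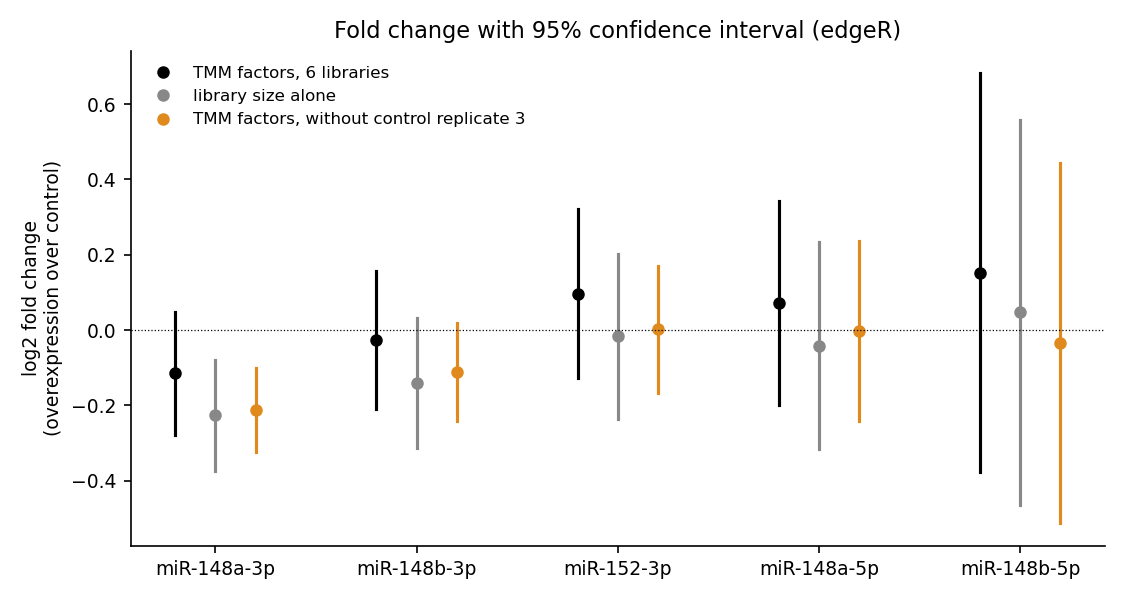
Log2 fold change of the overexpression over the control group for the 5 tested members, as points with 95% confidence intervals from edgeR, with TMM factors and 6 libraries (black), with the library size alone (grey) and with TMM factors without control replicate 3 (orange). The orange and grey intervals of hsa-miR-148a-3p lie below 0, and its black interval reaches 0.049.

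The 3 guides share a seed, and their sum was taken as the level of that seed. In TMM-scaled CPM it was 61103, 59540 and 55999 for the overexpression group and 67276, 66610 and 56376 for the controls. The means were 58881 ± 2615 CPM and 63421 ± 6110 CPM (SD, n = 3 each), which differ by -4540 CPM (exact permutation test, two-sided, p = 0.3, adjusted p = 0.45 over the 6 single-value comparisons). With 3 samples against 3 this test cannot go below 0.1. As a part of all counts, the guides took 6.09%, 5.48% and 5.42% with overexpression and 6.76%, 6.87% and 6.13% in controls. On this scale the groups did not overlap. In deposited TPM 18.3% of all tested miRNAs did not overlap, and for 16.3% every overexpression sample was below every control sample. hsa-miR-148a-3p held 92.1% of the sum with overexpression and 92.6% in controls, so this is not separate from its own result. The summed level differed by -9263 CPM without TMM factors (exact permutation test, two-sided, p = 0.1). In TMM-scaled CPM the difference was -2612 CPM without control replicate 1, -2945 CPM without control replicate 2 and -8062 CPM without control replicate 3.

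Within the sum of the guides, the library scaling cancels. The share of hsa-miR-152-3p was 0.584%, 0.629% and 0.604% for the overexpression group and 0.538%, 0.512% and 0.528% for the controls. Every overexpression sample was above every control sample, and the means differed by 0.0799 percentage points (0.606% ± 0.0224 against 0.526% ± 0.0128, SD, n = 3 each). The share of hsa-miR-148b-3p was 7.10%, 7.60% and 7.23% against 6.73%, 6.98% and 7.05%, again without overlap, with a difference of 0.391 percentage points. The share of hsa-miR-148a-3p was lower by as much as both other shares together were higher, since the shares add up to the whole. It was 92.1% ± 0.283 against 92.6% ± 0.159 (SD, n = 3 each). Both shares tested gave the smallest p that the design allows (two-sided exact permutation test, p = 0.1, adjusted p = 0.2 over the 6 comparisons), which is above 0.05. Both shares, and the ratios to hsa-miR-148a-3p and the arm ratio of miR-148a given below, use the counts of hsa-miR-148a-3p. They are therefore not separate results.

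As a log2 ratio to hsa-miR-148a-3p, hsa-miR-152-3p was 0.21 higher and hsa-miR-148b-3p 0.086 higher in the overexpression group, and both ratios separated the groups. A separation in either direction was found for 15.1% of the 551 tested miRNAs other than hsa-miR-148a-3p. Without control replicate 3 the shares of hsa-miR-152-3p and hsa-miR-148b-3p differed by 0.0809 and 0.455 percentage points. The difference of the hsa-miR-148b-3p share was 0.245 percentage points without overexpression replicate 2, its highest sample.

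**Figure D4:**
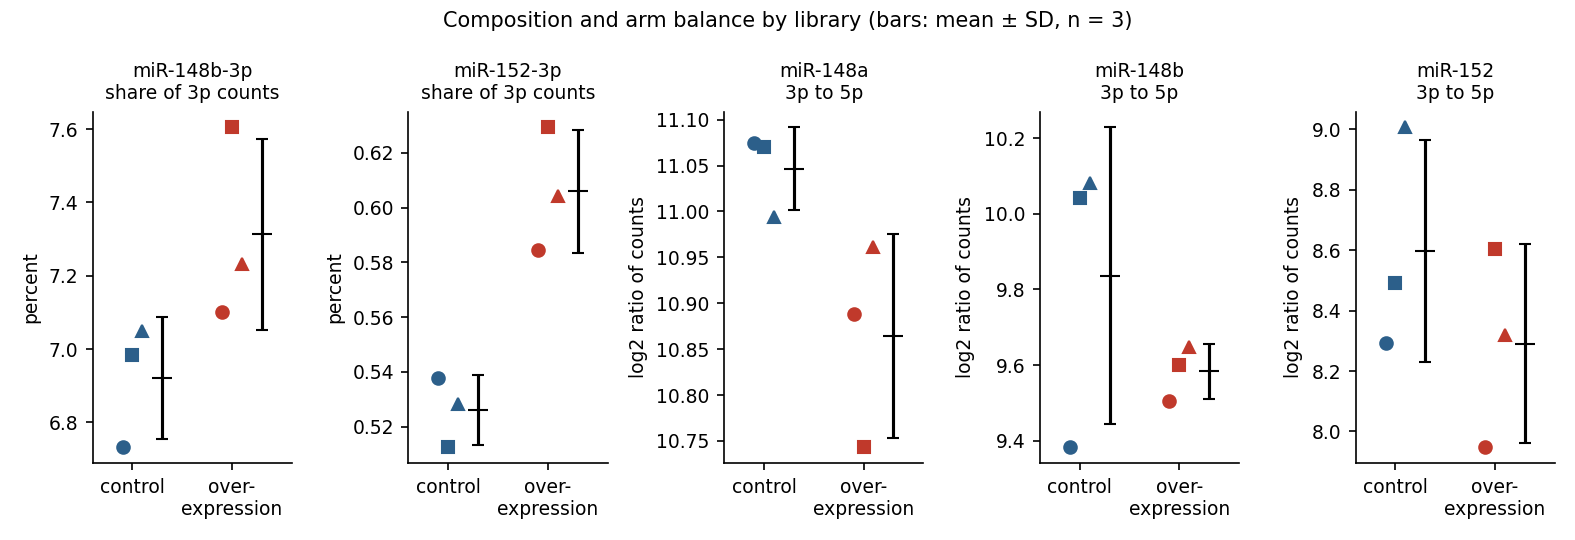
Share of hsa-miR-148b-3p and hsa-miR-152-3p in the summed counts of the guides (percent) and log2 ratio of 3p to 5p counts of each precursor, by sample, with the control group in blue, the overexpression group in red, replicates 1 to 3 as circle, square and triangle, and black bars for the mean ± SD (n = 3); the axes do not start at 0. The groups do not overlap in the first 3 panels and overlap in the panels of the miR-148b and miR-152 ratios.

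The balance of the arms was far to the guide side in all 3 precursors. Over the 6 samples, the 3p arm held 99.95% of the counts of miR-148a, 99.88% of miR-148b and 99.7% of miR-152. Among 157 precursors with both arms listed and at least 1000 counts in all, the dominant arm held a median of 97.7%, and the 3p arm was the dominant one in 71. The log2 ratio of 3p to 5p was higher than in miR-148a for 9 precursors, than in miR-148b for 15 and than in miR-152 for 20. The passenger had 28 to 73 counts per sample in miR-148b and 4 to 12 in miR-152, which limits the precision of these ratios.

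**Figure D5:**
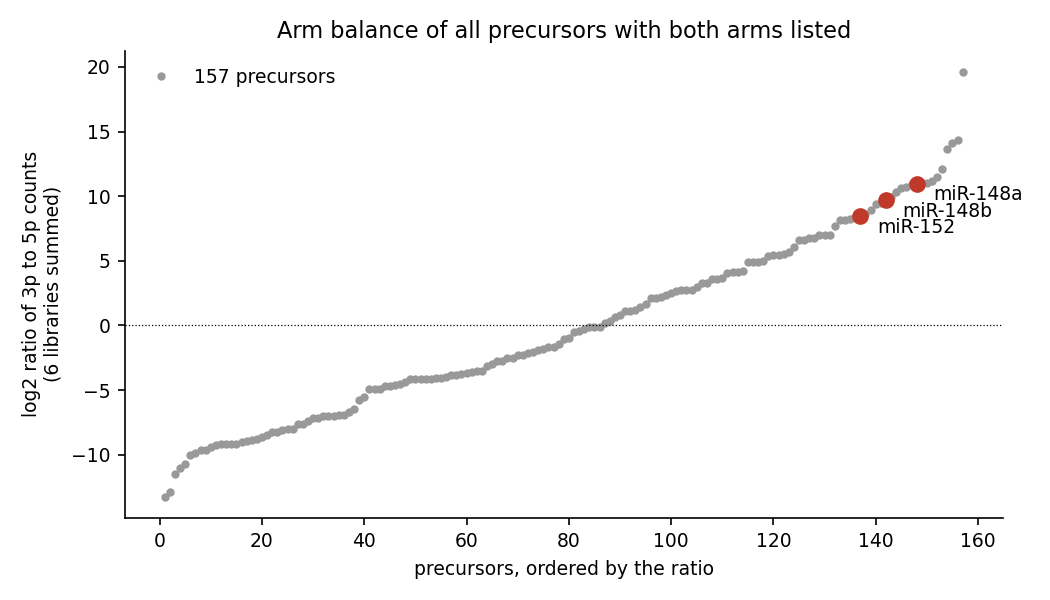
Log2 ratio of 3p to 5p counts, summed over the 6 libraries, for 157 precursors ordered by the ratio, with the 3 precursors of the family in red. All 3 lie at the 3p end, at 10.97 for miR-148a, 9.68 for miR-148b and 8.46 for miR-152.

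The log2 ratio of hsa-miR-148a-3p to hsa-miR-148a-5p was 10.89, 10.74 and 10.96 for the overexpression group and 11.07, 11.07 and 10.99 for the controls. Every overexpression sample was below every control sample, at -0.18 relative to it (exact permutation test, two-sided, p = 0.1, adjusted p = 0.2 over the 6 comparisons). A separation in either direction was found for 15.3% of the 157 precursors. It corresponds to 1872 ± 143 reads of 3p per read of 5p against 2120 ± 64.8 (SD, n = 3 each). For miR-148b the difference of the log2 ratio was -0.25 and for miR-152 -0.31, with overlap of the groups in both (two-sided exact permutation tests, p = 0.4 and p = 0.5, adjusted p = 0.48 and p = 0.5). These values moved with single samples. The difference of miR-148a was -0.12 without overexpression replicate 2. That of miR-148b was -0.48 without control replicate 1, whose 73 counts of hsa-miR-148b-5p were the most of any sample, -0.15 without control replicate 2 and -0.13 without control replicate 3. That of miR-152 was -0.13 without overexpression replicate 1, -0.46 without overexpression replicate 2 and also without control replicate 1, and -0.10 without control replicate 3. All 3 ratios were lower on average in the overexpression group, and none passed 0.05.

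Over the 6 samples, the level of hsa-miR-148a-3p on the log2(TMM-scaled CPM + 1) scale followed that of hsa-miR-148b-3p (Pearson's r = 0.842, Spearman's rho = 0.829) more closely than that of hsa-miR-152-3p (r = 0.446, rho = 0.543) or of its own passenger hsa-miR-148a-5p (r = 0.455, rho = 0.429). These correlations describe 6 points that share the 2 groups and control replicate 3. Among 304 other miRNAs with a mean of at least 10 CPM, the patterns most like hsa-miR-148a-3p were those of hsa-miR-200a-3p (r = 0.968), hsa-miR-33a-3p (r = 0.933) and hsa-miR-489-3p (r = 0.929). The patterns most like hsa-miR-148b-3p were those of hsa-miR-582-3p (r = 0.962), hsa-miR-141-3p (r = 0.953) and hsa-miR-1278 (r = 0.945). The patterns most like hsa-miR-152-3p were those of hsa-miR-192-5p (r = 0.979), hsa-miR-29c-3p (r = 0.978) and hsa-miR-126-5p (r = 0.969). The 3 guides had no miRNA in common among those named. These r values were picked as the highest of 304 over 6 points, and whether the guides differ in this was not tested.

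Other miRNAs reported to act on DNA methyltransferases were compared with the family. Of 7 such miRNAs, all 7 were tested and 0 passed after adjustment in edgeR. At an unadjusted p under 0.05, 2 were lower and 0 higher, where 26 of the 552 tested miRNAs were lower and 24 higher (9.06% in all). In direction alone, 5 of the 7 were above 0 and 2 below. The 2 lower ones were hsa-miR-29b-3p at -0.40 and hsa-miR-140-5p at -0.26 on the log2 scale (standard error 0.10 for each), and their adjusted p was 0.295 and 0.421 from edgeR. The median over the list was 0.087, against 0.0038 over all tested miRNAs and 0.071 over the 5 tested members. hsa-miR-29a-3p, the most abundant of the list with 13018 TPM, was at 0.087. hsa-miR-126-3p stands in this list and among the endothelial markers.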

How the data were processed

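miRNA sequencing of 6 Huh7 samples, 3 per group, was used, grouped by the sample titles. The members and lists were chosen with earlier results of these data known, and 1 of the lists is not reported here. The authors deposited counts, the reads assigned to each mature miRNA without normalization, and TPM values, which equalled the CPM of the same sample to within 0.00303. The submitters' processing notes name TopHat2 2.0.9, TopHat, Bowtie and hg38 with no role. Trimming, miRNA annotation and molecular identifiers are not given in the sources used here.

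Counts were tested with R 4.3.3 and edgeR 4.0.16. filterByExpr (minimum count 10, minimum total 15) kept 552 miRNAs holding 99.98% of counts, library sizes were scaled by TMM, and the groups were compared by the two-sided quasi-likelihood test. P-values were adjusted by Benjamini-Hochberg across the whole table, with calls at 0.05. TMM-scaled CPM use the library size multiplied by its factor. The sum of the guides, their shares and the log2 ratios of the arms (0.5 added to each count) were tested by exact permutation tests in SciPy 1.17.1, adjusted over these 6 comparisons. The test was tried on simulated counts. Sequences came from RefSeq (GRCh38.p14) and loci and transcripts from GENCODE release 29 (GRCh38).

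The alternatives were DESeq2 1.42.0, its size factors in edgeR, upper-quartile factors, the library size alone or without the most abundant miRNA, no filter, 10 counts in every sample, limma 3.58.1 on log2(CPM + 1) and log2(CPM + 0.1), a block for the replicate number, 5 added to the counts of the ratios, and leaving out each sample. For hsa-miR-152-5p the alternatives were chosen after seeing the data. The miRNAs named were the members, for each guide the 3 miRNAs with the highest Pearson's r over the 6 samples among those with a mean of at least 10 CPM, and the list members with an unadjusted p under 0.05. NFE2L3, AC010719.1, AC078778.2, hsa-miR-29a-3p, hsa-miR-126-3p and the transcripts searched were named after their values were seen. So were the markers hsa-miR-223-3p, hsa-miR-150-5p, hsa-miR-143-3p, hsa-miR-133a-3p and hsa-miR-206.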

Additional observations from a re-analysis of the deposited data

How the results depend on the processing

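The number of members with an adjusted p under 0.05 was 0 with all 6 samples under every tool, scaling and filter tried, and 0 to 1 when single samples were left out, with 1 (hsa-miR-148a-3p) without control replicate 3. The log2 fold change of hsa-miR-148a-3p was between -0.21 and -0.071 with a sample left out, that of hsa-miR-148a-5p between -0.0013 and 0.16, that of hsa-miR-148b-3p between -0.11 and 0.025, that of hsa-miR-148b-5p between -0.035 and 0.46, and that of hsa-miR-152-3p between 0.0019 and 0.15. The direction turned for hsa-miR-148a-5p with the library size alone (-0.042), when the most abundant miRNA was also kept out of that size (-0.0049), without overexpression replicate 2 (-0.00036) and without control replicate 3 (-0.0013). It turned for hsa-miR-148b-3p without overexpression replicate 3 (0.025) and without control replicate 2 (0.012), for hsa-miR-148b-5p without control replicate 3 (-0.035), and for hsa-miR-152-3p with the library size alone (-0.016). The cause was not tested, other than that the median of all miRNAs moved to -0.11 and -0.075 under these 2 scalings. Of 150 values recomputed, 140 stayed on the same side in direction and call or moved by less than the spread between replicates. Another 8 turned. For the sum, the shares and the arm ratios the exact test cannot go below 0.1, so no call could change. For these, staying means the same direction only, whatever the change in size. For the member that failed the filter, the difference of mean CPM kept its direction in every alternative. Each time it also moved by less than the spread between replicates. The remaining 2 were hsa-miR-148a-3p and the number of members called, both without control replicate 3, and the second follows from the first.

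The replicate numbers are not stated to mark a batch, so the numbers were not taken as pairing. Over miRNAs with a mean of at least 100 CPM, the deviations of samples with one number correlated at -0.025, 0.15 and 0.24 for numbers 1 to 3. These 3 values, each from 1 sample per group, cannot decide whether the numbers mark pairs. The fit with a replicate block gave -0.11 for hsa-miR-148a-3p, -0.024 for hsa-miR-148b-3p, 0.10 for hsa-miR-152-3p, 0.072 for hsa-miR-148a-5p and 0.19 for hsa-miR-148b-5p, as log2 fold changes, and called 0 members in edgeR. The summed level of the guides differed by -4540 CPM in the main comparison and by -8062 to -2612 CPM with a sample left out. With the library size alone it differed by -9263 CPM, and by -11372 CPM when the most abundant miRNA was also kept out. That miRNA held 30.6% to 33.9% of the counts of a library, and leaving it out raises the CPM of all others. The last value is therefore not comparable in size with the rest. On the log2 scale, hsa-miR-148a-3p was at -0.23 with the library size alone and at -0.19 with that miRNA also kept out.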
